A study of Mus musculus with 19 samples.

Results

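Toll-like receptors are the innate sensors by which dendritic cells recognise microbial products. The 10 genes described here are Tlr1, Tlr2, Tlr3, Tlr4, Tlr6, Tlr7, Tlr9, Tlr11, Tlr12 and Tlr13, and they were followed in type 1 conventional dendritic cells (DC1) of the mouse. They were chosen by name, 3 as typical of DC1 (Tlr3, Tlr11 and Tlr12) and 7 as typical of other myeloid cells. On the spleen arrays all 10 had a probe set annotated to that symbol alone, out of 22180 genes named that way. On the lymph node arrays 9 of the 10 did, out of 19938 genes, and Tlr11 was not analysed there. Each of these genes had 1 such probe set per table.

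The mice were on a C57Bl/6j background. DC1 were sorted from spleens of female mice that were wild type (WT) without the Irf8VENUS fluorescent reporter (Irf8VENUS-, 2 arrays), WT with it (Irf8VENUS+, 3 arrays), or Batf3-/- with it (Irf8VENUS+, 3 arrays). They were also sorted from skin-draining lymph nodes (SDLN) of Irf8VENUS+ mice, as resident WT (3 arrays), migratory WT (2), resident Batf3-/- (3) and migratory Batf3-/- (3) cells. The labels name no Toll-like receptor ligand or other stimulus for any group, and all lymph node groups carried the reporter. The labels give no age and do not say whether mice were pooled or whether each array had its own mice, so p-values measure only the spread between these arrays. Batf3-/- mice lack a transcription factor on which DC1 development depends, so their DC1 are the cells that formed without it and that the sort could still gate. Resident cells were gated as intermediate for MHC class II and high for CD11c, and migratory cells, which arrive from the skin, the other way round. In spleen the gate used CD24 together with XCR1, except that replicate 3 of each Irf8VENUS+ group was gated by CD24 only.

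Each receptor has a leucine-rich domain that binds the ligand and a cytoplasmic domain that recruits an adaptor. TLR3 binds double-stranded RNA in endosomes and signals through TRIF, encoded by Ticam1, whereas the other receptors named here signal through MYD88, TLR4 using both. TLR3, TLR7, TLR9, TLR11, TLR12 and TLR13 work inside the cell and need the transport protein UNC93B1. TLR1, TLR2, TLR4 and TLR6 act at the cell surface. DC1 are known for strong TLR3 and for TLR11 and TLR12, which bind profilin of Toxoplasma and related parasites.

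Values are log2 intensities, and each table has its own scale, so levels were compared only within a table and only within a gene. A gene entered the test if 2 or more arrays lay at or above its table's median, 5.04 in spleen and 4.82 in SDLN, and it was called when its adjusted p was below 0.05 in limma. In spleen 9 of the 10 receptor genes were tested, all but Tlr7. In SDLN 7 were tested, and Tlr4 and Tlr7 lay below the median on all 11 arrays. Tlr6 passed in SDLN only through the resident Batf3-/- arrays, 3 of 11, the group where it was highest, so its SDLN values are given as a description and it is left out of the SDLN counts of calls and medians below. Arrays measure RNA of the sorted population, so fewer cells of a kind and less RNA per cell cannot be told apart, and the small number of arrays limits precision.

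The labels were checked first. Batf3 ranged from 5.50 to 6.17 on the SDLN arrays labelled Batf3-/- and from 8.15 to 9.23 on those labelled WT. In spleen it read 6.35, 5.29 and 7.08 on the Batf3-/- arrays and 9.42 to 10.41 on the WT ones, so replicate 3 of the Batf3-/- group, sorted on CD24 alone, was the highest of its group and still below all WT arrays. The DC1 marker Xcr1 ranged from 9.53 to 11.34 in resident cells, from 7.85 to 8.07 in migratory WT cells and from 5.83 to 6.46 in migratory Batf3-/- cells. The spleen sort is described with CD172a+, which marks cDC2, the second conventional subset, yet its gene Sirpa read 5.35 to 5.84 there while Xcr1 read 8.99 to 11.43. Resident WT replicate 1 stood apart in SDLN for cDC2 markers, with Sirpa at 7.82 against 5.31 and 5.67 and Cd209a at 9.68 against 6.98 and 7.32. Its receptor values are given with those of its group below.

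The promoter windows of the 3 DC1-typical genes are shown because the results turn on these genes, Tlr3 and Tlr12 having fallen together in migratory cells. They are RefSeq sequences of build GRCm38.p6, from 250 bases before to 50 bases after the start of the gene, on the strand of the gene, and capitals mark a motif match. Tlr3 is at chr8:45410331-45410630 (minus strand), Tlr11 at chr14:50357664-50357963 (plus strand) and Tlr12 at chr4:128618570-128618869 (minus strand).
Tlr3: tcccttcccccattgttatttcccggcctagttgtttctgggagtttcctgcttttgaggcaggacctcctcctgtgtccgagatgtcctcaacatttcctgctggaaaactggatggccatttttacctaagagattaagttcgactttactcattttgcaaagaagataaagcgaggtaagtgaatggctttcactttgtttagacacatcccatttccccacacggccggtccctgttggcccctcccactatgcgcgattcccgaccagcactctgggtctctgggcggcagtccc
Tlr11: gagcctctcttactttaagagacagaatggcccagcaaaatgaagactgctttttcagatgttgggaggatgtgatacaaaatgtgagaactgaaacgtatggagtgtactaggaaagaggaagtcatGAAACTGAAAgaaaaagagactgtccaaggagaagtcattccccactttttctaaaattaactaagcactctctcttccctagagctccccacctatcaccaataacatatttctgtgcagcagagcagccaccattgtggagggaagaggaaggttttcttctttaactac
Tlr12: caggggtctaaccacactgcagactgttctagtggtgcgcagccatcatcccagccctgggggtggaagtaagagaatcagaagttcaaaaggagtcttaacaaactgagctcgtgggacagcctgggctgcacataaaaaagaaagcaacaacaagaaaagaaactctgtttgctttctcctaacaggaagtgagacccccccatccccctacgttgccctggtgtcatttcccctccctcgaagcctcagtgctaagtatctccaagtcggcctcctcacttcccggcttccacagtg

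Both strands of each window were searched for 3 motifs. TGANTCA, the AP-1 element to which BATF family dimers bind, occurred in 7.81% of 32851 RefSeq windows of this length. GAAANNGAAA, a pair of half-sites of the interferon regulatory factors, occurred in 3.44%, and GGAANNGAAA, the composite element of ETS and interferon regulatory factors, in 2.72%. Windows were found for 8 of the 10 genes, 10 windows in all, Tlr1 and Tlr6 having 2 each. The paired half-site was in 2 of them: the Tlr11 window at -122 to -113 (capitals above), counted from the start, and a Tlr6 window, with overlapping matches at -116 to -107 and -110 to -101 on the opposite strand. The AP-1 element was in 1 window, that of Tlr9 at -58 to -52, and the composite element in 0. A match is a description of letters, and a window without one says nothing about binding elsewhere.

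Tlr3 was bright in all resident and spleen DC1 and low in migratory DC1. In SDLN it read 10.77, 10.93 and 10.83 in resident WT cells and 10.28, 10.32 and 10.15 in resident Batf3-/- cells. It read 6.22 and 6.65 in migratory WT cells, and 5.04, 4.89 and 5.78 in migratory Batf3-/- cells. No 2 of these 4 groups overlapped, in the order resident WT, resident Batf3-/-, migratory WT, migratory Batf3-/-. The migratory minus resident difference was -4.41 ± 0.25 (SE; adjusted p = 2.92e-07 in limma) in WT, 21.2-fold on the linear scale. The difference was -5.02 ± 0.22 (adjusted p = 3.85e-08) in Batf3-/- mice. No fold is given there, because the migratory Batf3-/- values lay near the table's median. Resident WT replicate 1, the array with high Sirpa, did not stand apart for Tlr3.

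Tlr12 also fell with the migratory state. It read 7.17, 7.63 and 7.40 in resident WT and 8.49, 8.41 and 7.85 in resident Batf3-/- cells. It read 4.79 and 4.10 in migratory WT cells, and 5.61, 4.95 and 4.94 in migratory Batf3-/- cells. Both migratory WT arrays lay below the table's median, and all migratory arrays lay below all resident ones. The difference was -2.96 ± 0.28 (adjusted p = 6.90e-06 in limma), in WT and -3.08 ± 0.25 (adjusted p = 1.52e-06) in Batf3-/- mice, with no fold given because the migratory values were near or below that median. The Batf3-/- group was the higher one in both states, without overlap and the reverse of the order for Tlr3, but neither Tlr12 difference between genotypes was called: 0.85 ± 0.25 (adjusted p = 0.139) in resident and 0.72 ± 0.28 (adjusted p = 0.107) in migratory cells. The migratory difference was 0.38 (adjusted p = 0.451) without WT replicate 2 and 1.07 (adjusted p = 0.134) without WT replicate 1.

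**Figure D1:**
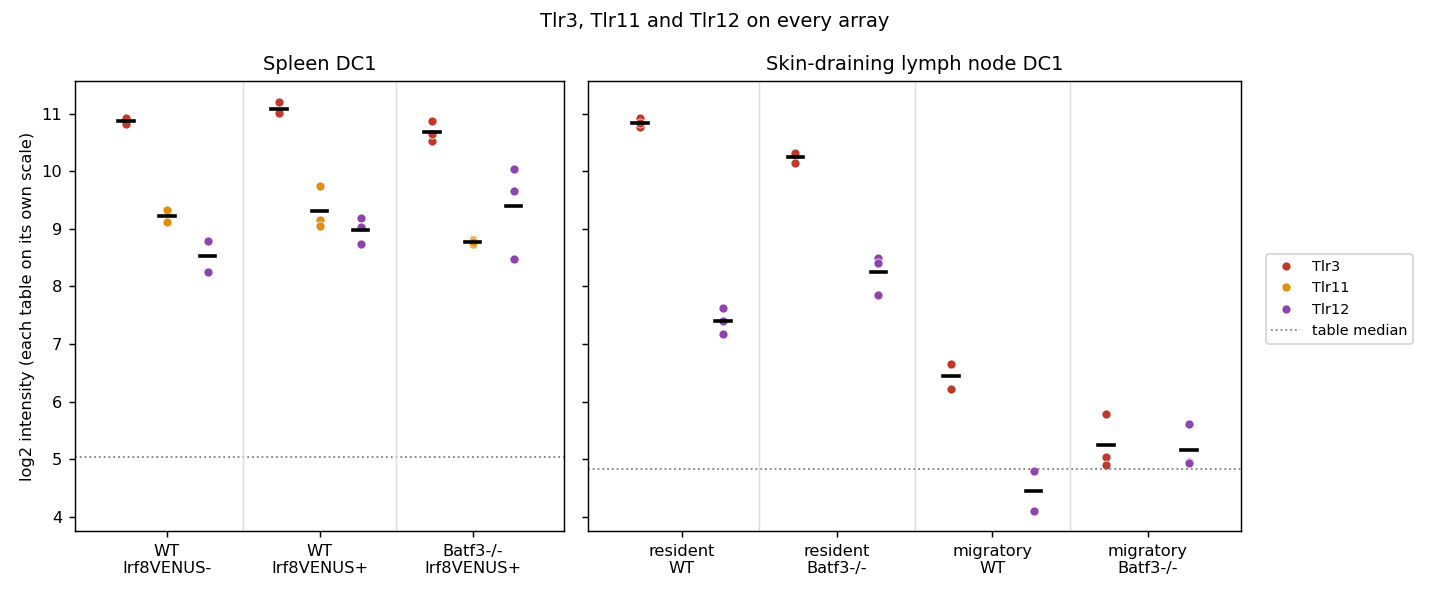
Log2 intensity of Tlr3, Tlr11 and Tlr12 (vertical axis, each table on its own scale) for every array of the 7 groups (horizontal axis); points are arrays, bars are group means and the dotted line is the median of the table. Tlr3 lay between 10.15 and 10.93 on the resident lymph node arrays and between 4.89 and 6.65 on the migratory ones; Tlr11 has points only in spleen.

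The 7 other receptors were read for the same step from resident to migratory cells in WT mice. Of the 6 receptor genes tested in SDLN beside Tlr6, 6 were called, 1 higher and 5 lower, where 49.2% of all 11931 genes tested were called, so the count stands against a broad difference between the states. The 6 genes had a median log2 difference of -1.55, the 2 DC1-typical ones -3.68 and the 4 others -1.23, against -0.16 over all genes tested. In Batf3-/- mice 4 of 6 were called, all lower, where 36.6% of all genes were. The medians there were -1.37 over the 6, -4.05 over the 2 DC1-typical genes and -0.83 over the 4 others, against -0.02 over all genes.

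Tlr13, which senses bacterial ribosomal RNA, read 7.44, 7.40 and 7.49 in resident WT and 5.11 and 6.25 in migratory WT cells. In Batf3-/- mice it read 8.03, 8.30 and 8.41 in resident and 7.32, 7.81 and 6.63 in migratory cells. Within each genotype the states did not overlap. Tlr13 fell by 1.77 ± 0.34 on the log2 scale (adjusted p = 0.00122 in limma) in WT and by 1.0 ± 0.31 (adjusted p = 0.0221) in Batf3-/- mice. With the spread of each array as a term the WT fall was gone, at 0.040 (adjusted p = 0.977). The call in Batf3-/- mice was lost without resident replicate 2 (-0.97, adjusted p = 0.0652), resident replicate 3 (-0.92, adjusted p = 0.0636) or migratory replicate 3 (-0.69, adjusted p = 0.0771), and with the spread of each array as a term, described below, it was -0.40 (adjusted p = 0.370).

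Tlr9, the receptor for DNA with unmethylated CpG, read 8.93, 9.0 and 9.16 in resident WT and 7.47 and 7.93 in migratory WT cells. In Batf3-/- mice it read 9.08, 9.24 and 9.26 in resident and 8.72, 9.02 and 8.07 in migratory cells. The states did not overlap in either genotype, and migratory WT arrays were the lowest of all. Tlr9 fell by 1.33 ± 0.25 (adjusted p = 1.00e-03 in limma) in WT, but with the spread of each array as a term, described below, the WT difference was -0.086 (adjusted p = 0.933). In Batf3-/- mice the difference was -0.59 ± 0.22 (adjusted p = 0.0567), not called without a block.

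Tlr2, which pairs with TLR1 or TLR6 to bind bacterial lipopeptides, read 7.5, 7.51 and 7.28 in resident WT and 5.90 and 6.68 in migratory WT cells. It read 7.54, 7.43 and 6.77 in resident Batf3-/- and 6.82, 6.86 and 6.06 in migratory Batf3-/- cells, where the states overlapped. In WT it fell by 1.14 ± 0.30 (adjusted p = 0.00861 in limma), and without migratory WT replicate 1 the call was lost (-0.75, adjusted p = 0.123). With the spread of each array as a term, described below, the WT difference changed sign, at 1.04 (adjusted p = 0.0892). The difference in Batf3-/- mice was -0.67 ± 0.27 (adjusted p = 0.0757). With the title code as a replicate block, Tlr2 and Tlr9 were called in Batf3-/- mice as well.

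Tlr6, the other partner of TLR2, read 4.61, 4.59 and 4.81 in resident WT, 5.14, 5.33 and 4.99 in resident Batf3-/-, 4.75 and 4.45 in migratory WT, and 4.73, 4.43 and 4.48 in migratory Batf3-/- cells. Resident Batf3-/- cells were the highest group and overlapped no other, and the other 3 groups overlapped below the median of the table. The migratory minus resident difference in Batf3-/- mice was -0.61 ± 0.14, and it is not counted as a call because Tlr6 entered the test through the resident Batf3-/- arrays alone.

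Tlr1, the third partner in this trio, did not follow the other receptors. It read 5.67, 4.90 and 5.43 in resident WT and 5.78 and 7.23 in migratory WT cells. In Batf3-/- mice it read 7.40, 7.82 and 8.16 in resident and 5.89, 5.92 and 6.36 in migratory cells. Thus the migratory arrays lay above the resident ones in WT and below them in Batf3-/- mice, with no overlap in either. Tlr1 rose by 1.17 ± 0.37 (adjusted p = 0.0203 in limma) in WT and fell by 1.74 ± 0.33 (adjusted p = 0.00127) in Batf3-/- mice. The rise in WT rested on migratory replicate 2: without it the difference was 0.45 (adjusted p = 0.298), without migratory replicate 1 it was 1.89, and without resident replicate 2 it was 0.96 (adjusted p = 0.0769). Compared within arrays that share a title code, it was 0.11 and 2.33.

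Markers of B cells, which also carry TLR1, TLR7 and TLR9, moved with migratory WT cells although the sort removed B220+ cells. Tlr9 itself read lower in migratory WT (7.47 and 7.93) than in resident WT cells (8.93 to 9.16). Of 8 B cell markers 7 had a probe set. All 7 were called higher in migratory than in resident WT cells by the same test, where 49.2% of all genes tested were called. The log2 of their summed intensity was 7.24 to 7.71 in resident WT, 7.42 to 7.80 in resident Batf3-/-, 8.83 to 9.19 in migratory WT and 7.72 to 8.77 in migratory Batf3-/- cells. Migratory WT replicate 2, the array with the highest Tlr1 and Tlr7 of its group, read 7.41 for Pax5 and 6.34 for Ms4a1, against 6.10 and 5.36 on replicate 1, which read higher for Cd79a (7.43 against 6.00). T cell markers were read as well. Of 5 with a probe set 2, Cd3d and Cd3g, were called higher in migratory WT cells, where 49.2% of all genes tested were called. Both encode chains of the T cell receptor complex. Of the 5 differences 4 were positive and 1 negative. The log2 of the summed intensity of the 5 T cell markers was 8.24 to 8.48 in resident WT and 8.46 to 9.55 in resident Batf3-/- cells. It was 8.86 to 9.87 in migratory WT and 8.30 to 9.45 in migratory Batf3-/- cells. The part of these markers in the Tlr1 result was not tested.

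**Figure D2:**
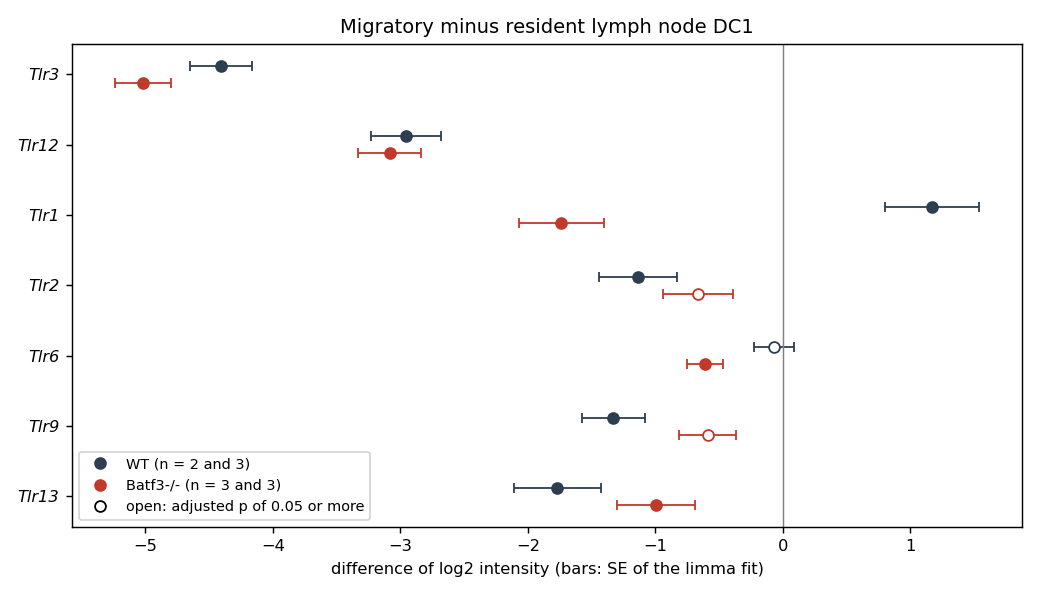
Migratory minus resident difference of log2 intensity (horizontal axis) for the 7 receptor genes tested in lymph node DC1 (Tlr6 through its resident Batf3-/- arrays alone), in WT and in Batf3-/- mice; points are limma estimates, bars their SE, and open points have an adjusted p of 0.05 or more. Tlr3 lies farthest to the left at -4.41 and -5.02, and Tlr1 is the only gene on opposite sides of 0, at 1.17 in WT and -1.74 in Batf3-/- mice.

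Other genes ran alongside these receptors. The DC1 marker list without the receptors had all 12 of its genes called between migratory and resident WT cells, 1 higher and 11 lower. The log2 of its summed intensity was 14.03 to 14.25 in resident WT, 13.55 to 13.63 in resident Batf3-/-, 11.73 to 12.09 in migratory WT and 11.89 to 12.62 in migratory Batf3-/- cells. Of 10 maturation markers of dendritic cells 7 were higher and 1 lower in migratory WT cells, with summed levels of 11.56 to 11.90 in resident and 13.22 to 13.52 in migratory cells. Their part in the receptor results was not tested.

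The genes whose pattern over the 11 SDLN arrays lay closest to that of Tlr3, by the root mean square difference of centred log2 values, were Ccr2 (0.51), Naaa (0.52) and Cxcr3 (0.63). Ccr2 and Cxcr3 encode chemokine receptors, and Naaa a lysosomal amidase. Closest to Tlr12 were Kit (0.29), which encodes the receptor for stem cell factor, Adgra2 (0.32) and Dapk1 (0.32). The measure describes likeness over arrays that share groups and says nothing of shared control.

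The next comparison asked how the receptors differ in DC1 that form without Batf3. In resident SDLN cells 1 of 6 receptor genes was called, Tlr1, where 1.84% of all genes were. Tlr1 rose by 2.46 ± 0.33 (adjusted p = 0.00148 in limma), and within the 3 title codes the difference was 1.73, 2.92 and 2.72. No fold is given for Tlr1, because its WT values lay near the table's median. Its call held without each array in turn, at 2.24 to 2.65. At an unadjusted p below 0.05 there were 4 of 6, namely Tlr1, Tlr3, Tlr12 and Tlr13, where 9.61% of all genes were. For each of the 4 the resident genotypes did not overlap, with Tlr3 the one that read lower in Batf3-/- cells, at -0.59 ± 0.22 (adjusted p = 0.323). The median difference of the 6 was 0.48, and that of all genes -0.01. With arrays weighted by their quality, and Tlr6 left out, Tlr1, Tlr3, Tlr12 and Tlr13 were called.

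Other markers moved in the same comparison of resident cells. Of 12 DC1 markers 6 were called lower in Batf3-/- cells. Of 7 cDC2 markers 2 were called higher, but the other 5 had negative differences, and the median of the 7 was -0.36. The summed log2 level of the cDC2 list was 9.06 to 11.00 in WT and 9.52 to 9.96 in Batf3-/- cells. The Langerhans cell list held Cd207, Epcam and Cldn1. The 1 marker of it tested was called higher, with summed log2 levels of the list of 9.37 to 9.66 in WT and 10.67 to 11.02 in Batf3-/- cells. The list also read 9.87 to 10.57 in Batf3-/- and 7.33 to 8.44 in WT Irf8VENUS+ spleen cells. Its name does not show that Langerhans cells were present. Of 10 maturation markers 2 were called higher, with summed levels of 11.56 to 11.90 and 11.81 to 12.62. The part of these markers in the rise of Tlr1 was not tested.

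Migratory cells gave 3 of 6 receptor genes called between genotypes, where 9.41% of all genes were called. Tlr3 fell by 1.20 ± 0.25 (adjusted p = 0.0165 in limma), with -1.18 and -1.76 inside the 2 title codes common to both genotypes. Its Batf3-/- values lay near the table's median, so no fold is given. Tlr13 rose by 1.57 ± 0.34 (adjusted p = 0.0192), with 2.21 and 1.56 within codes, and Tlr9 by 0.90 ± 0.25 (adjusted p = 0.0419), with 1.25 and 1.09. For each of the 3 genes the genotypes did not overlap. The median difference of the 6 genes was 0.51, against 0.10 over all genes. With 2 WT arrays these calls were close to the threshold. The Tlr3 call was lost without WT replicate 1 (-1.42, adjusted p = 0.0627), WT replicate 2 (-0.98, adjusted p = 0.0604), Batf3-/- replicate 1 (-1.10, adjusted p = 0.0595) or Batf3-/- replicate 2 (-1.02, adjusted p = 0.0595). The Tlr13 call was lost without WT replicate 1 (1.0, adjusted p = 0.181), Batf3-/- replicate 1 (1.54, adjusted p = 0.0646) or Batf3-/- replicate 2 (1.29, adjusted p = 0.0682). The Tlr9 call was lost without any 1 of 8 arrays, at 0.67 to 0.90. With the title code as a replicate block Tlr12 was called too (0.83, adjusted p = 0.0438).

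Marker lists moved between the migratory genotypes as well. Of 12 DC1 markers 2 were called higher and 6 lower in Batf3-/- cells. Of 5 macrophage and monocyte markers 2 were called higher, with summed log2 levels of 8.91 to 9.02 in WT and 9.23 to 9.34 in Batf3-/- cells. The 1 Langerhans cell marker tested was called higher, with summed levels of 8.09 to 8.15 and 8.88 to 9.54. Of 7 B cell markers 1 was called lower, and the differences of all 7 were negative. Of 10 maturation markers 2 were called higher. Their part in the Tlr3, Tlr9 and Tlr13 differences was not tested.

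The arrays of migratory WT cells had a narrower spread of values than the others, an SD over probe sets of 1.96 and 2.03 against 2.16 to 2.23 in resident and 2.07 to 2.16 in migratory Batf3-/- cells. With that SD as a term the Tlr3 difference between migratory genotypes was -0.92 (adjusted p = 0.348 in limma), with 0 of 6 genes called, and 2 of 6, Tlr3 and Tlr12, were called between migratory and resident WT cells. The Tlr1 rise between WT states was then 1.22 (adjusted p = 0.475). The SD nearly follows the groups, so its part and that of the migratory WT state cannot be told apart.

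**Figure D3:**
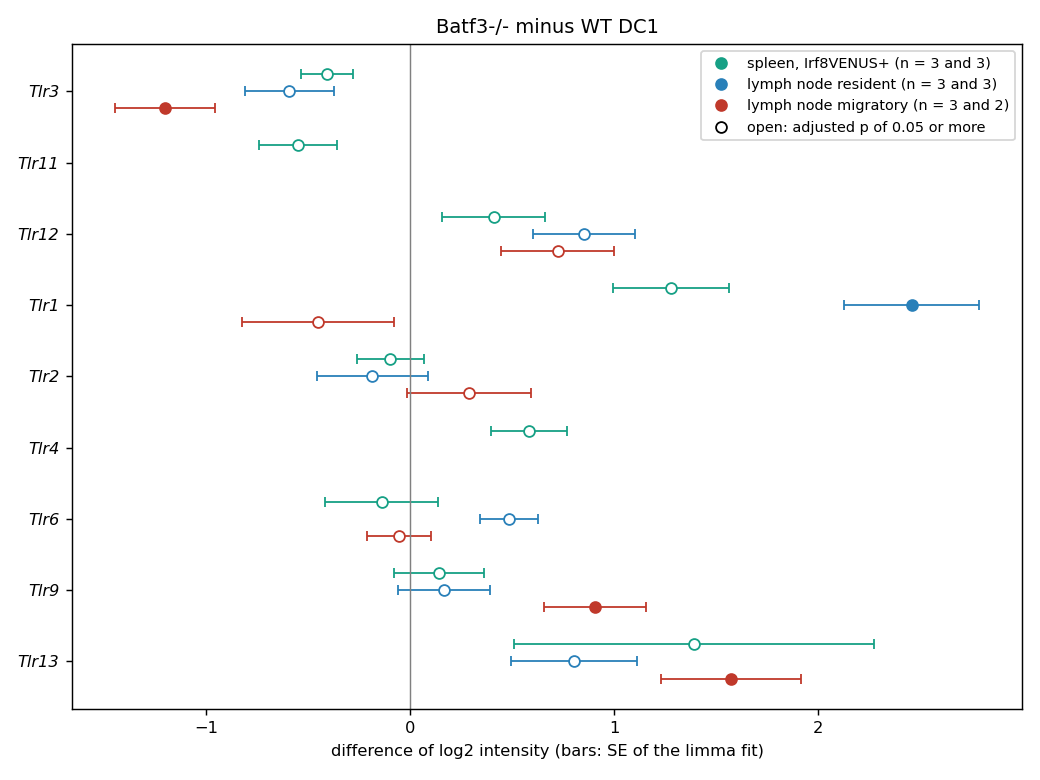
Batf3-/- minus WT difference of log2 intensity (horizontal axis) for each tested receptor gene in spleen Irf8VENUS+, resident and migratory lymph node DC1; points are limma estimates, bars their SE, and open points have an adjusted p of 0.05 or more. Tlr3 lies below 0 in all 3 populations (-0.41, -0.59 and -1.20) and Tlr12 above 0 (0.41, 0.85 and 0.72), and Tlr1 is above 0 in spleen and resident cells alone.

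Whether the Batf3 effect differed between states was tested directly, as the effect in migratory minus that in resident cells. Of 6 receptor genes 1 was called, Tlr1 at -2.91 ± 0.50 (adjusted p = 0.0216 in limma), where 1.24% of all genes were. Within title codes the difference was -1.62 and -4.23. The call was lost without resident WT replicate 2 (-2.69, adjusted p = 0.0790), resident WT replicate 3 (-2.96, adjusted p = 0.0673), resident Batf3-/- replicate 2 (-2.89, adjusted p = 0.0545), migratory Batf3-/- replicate 1 (-2.83, adjusted p = 0.0586) or migratory Batf3-/- replicate 2 (-2.84, adjusted p = 0.0561), and with the SD of each array as a term (-2.94, adjusted p = 0.151). The difference was -0.61 (adjusted p = 0.333) for Tlr3 and -0.13 (adjusted p = 0.872) for Tlr12. Without migratory Batf3-/- replicate 3 that of Tlr3 was -0.88 (adjusted p = 0.0240).

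In spleen DC1 the 3 DC1-typical receptors were bright in every group. Tlr3 read 10.93 and 10.82 in WT Irf8VENUS-, 11.03, 11.21 and 11.01 in WT Irf8VENUS+, and 10.88, 10.52 and 10.64 in Batf3-/- cells. All WT Irf8VENUS+ arrays lay above all others, while the other 2 groups overlapped. Tlr11 read 9.33 and 9.11 in WT Irf8VENUS-, 9.74, 9.16 and 9.05 in WT Irf8VENUS+, and 8.73, 8.81 and 8.77 in Batf3-/- cells. The Batf3-/- arrays were the lowest 3, and the WT groups overlapped.

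Tlr12 read 8.79 and 8.25 in WT Irf8VENUS-, 9.18, 9.03 and 8.74 in WT Irf8VENUS+, and 10.03, 9.66 and 8.48 in Batf3-/- cells. Neighbouring groups overlapped, and the low Batf3-/- array was the one sorted on CD24 alone, which also read lowest for Xcr1 (8.99). On arrays sorted on both markers the Batf3-/- minus WT Irf8VENUS+ difference of Tlr12 was 0.74, and on the 2 arrays sorted on CD24 alone it was -0.25.

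No receptor gene passed the adjusted threshold in spleen, 0 of 9 in each of the 3 comparisons. Between Batf3-/- and WT Irf8VENUS+ cells 0.738% of all 12875 genes were called by limma, and 4 of 9 receptor genes had an unadjusted p below 0.05, where 10.4% of all genes did. The limma differences were -0.41 ± 0.13 for Tlr3 (adjusted p = 0.280), -0.55 ± 0.19 for Tlr11 (adjusted p = 0.350) and 0.41 ± 0.25 for Tlr12 (adjusted p = 0.642). Between Batf3-/- and WT Irf8VENUS- cells 0.559% of genes were called by limma, and 3 of 9 receptor genes had an unadjusted p below 0.05, where 9.25% of all genes did. The differences there were -0.17 for Tlr3, -0.38 for Tlr11 and 1.16 ± 0.29 for Tlr12 (adjusted p = 0.192). Between the WT groups 0.0233% of genes were called by limma, and 1 of 9 receptor genes, Tlr12, had an unadjusted p below 0.05, where 7.91% of all genes did. Its difference was 0.75 ± 0.29 (adjusted p = 0.601), beside 0.23 for Tlr3 and 0.16 for Tlr11. The 3 comparisons share groups, so their values are not independent of each other.

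Among the receptors typical of other myeloid cells, Tlr1 and Tlr4 had Batf3-/- arrays apart from WT ones in spleen. Tlr1 pairs with TLR2 to bind lipopeptides. Tlr1 read 8.35, 8.04 and 8.12 in Batf3-/- cells, above 6.71, 7.24 and 6.72 in WT Irf8VENUS+ and 7.31 and 6.28 in WT Irf8VENUS- cells. No WT array reached a Batf3-/- one, and the difference was 1.22 on arrays sorted on both markers and 1.4 on those sorted on CD24 alone. The limma difference from WT Irf8VENUS+ cells, 1.28 ± 0.28, was not called (adjusted p = 0.109), nor was that from WT Irf8VENUS- cells, 1.43 ± 0.33 (adjusted p = 0.162). Tlr1 was singled out in spleen after its values were seen. Between the same Batf3-/- and WT Irf8VENUS+ cells 4 of 11 DC1 markers were called lower, 1 of 2 Langerhans cell markers higher and 1 of 10 maturation markers higher. The other Langerhans cell marker had a negative difference that was not called. Against WT Irf8VENUS- cells 1 of the 2 Langerhans cell markers was called higher and 1 lower. The part of these markers in the Tlr1 values was not tested.

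Tlr4, the endotoxin receptor, read 6.63, 6.11 and 6.13 in Batf3-/-, 5.91, 5.81 and 5.39 in WT Irf8VENUS+, and 5.50 and 5.90 in WT Irf8VENUS- cells, with Batf3-/- arrays above all WT ones. The Batf3-/- mean was 0.58 above that of WT Irf8VENUS+ cells, a difference that was not called. In SDLN its values were 2.94 to 4.30 over all 11 arrays. Tlr13 was the most uneven gene in spleen, at 8.99 and 8.34 in WT Irf8VENUS-, 5.00, 8.61 and 7.63 in WT Irf8VENUS+, and 9.04, 9.10 and 7.26 in Batf3-/- cells. Its low value was WT Irf8VENUS+ replicate 1, which set the mean and SD of its group to 7.08 ± 1.87 (SD, n = 3). The Batf3-/- minus WT Irf8VENUS+ difference was 2.27 on arrays sorted on both markers and -0.37 on CD24 alone.

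The other 4 receptors showed no order of groups in spleen beyond their spread. Tlr2 ranged from 6.95 to 7.46, Tlr6 from 6.52 to 7.69 and Tlr9 from 8.24 to 8.93, and all neighbouring groups overlapped. Tlr7, the receptor for single-stranded RNA, ranged from 2.78 to 3.70 in spleen and from 2.81 to 4.21 in SDLN. It reached the median of its table on 0 arrays, and its highest SDLN value was migratory WT replicate 2.

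**Figure D4:**
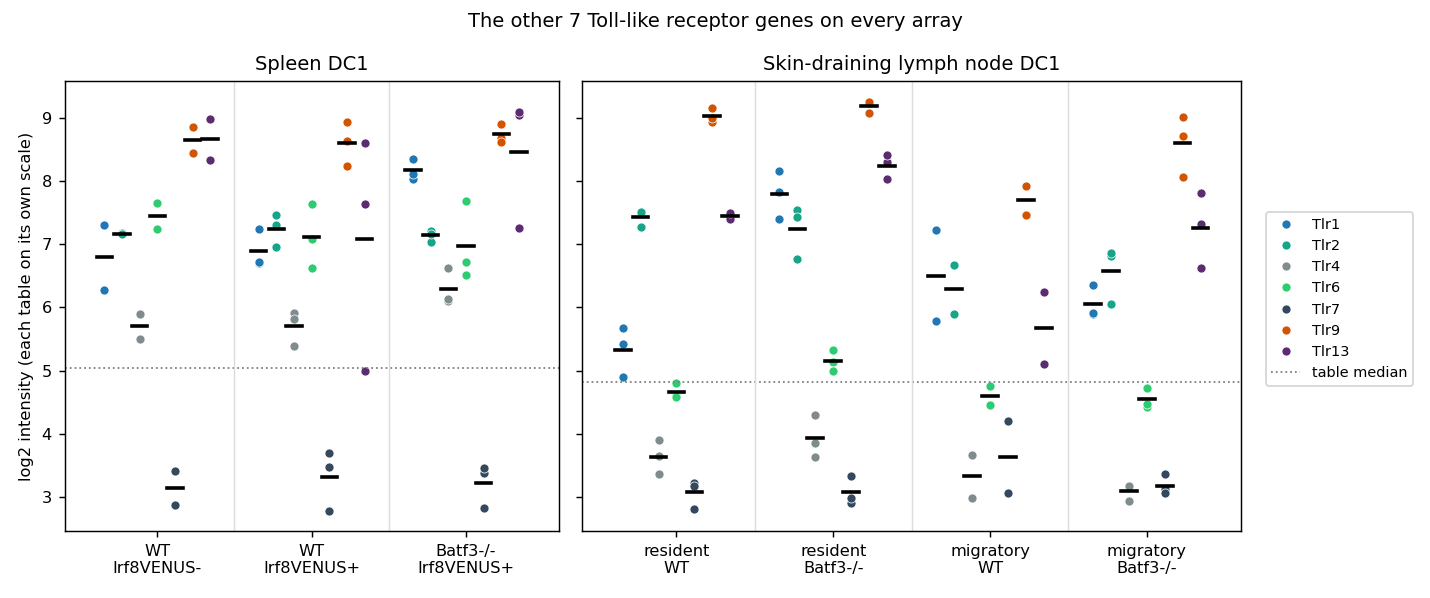
Log2 intensity of the 7 receptor genes typical of other myeloid cells (vertical axis, each table on its own scale) for every array of the 7 groups (horizontal axis); points are arrays, bars are group means and the dotted line is the median of the table. Tlr1 is highest in Batf3-/- spleen (8.04 to 8.35) and resident Batf3-/- lymph node DC1 (7.40 to 8.16), and Tlr7 lies below the median on every array.

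The machinery around the receptors was read from 55 genes in 7 lists. Of 46 tested in SDLN, 6 were higher and 17 lower in migratory than in resident WT cells, with a median log2 difference of -0.37. In Batf3-/- mice 7 were higher and 11 lower, with a median of -0.05. In all 23 of 46 were called in WT and 18 of 46 in Batf3-/- mice, near the 49.2% and 36.6% of all genes given above. The counts by list below are thus a description and not a result about the pathway. Where a WT difference lost its call with the SD of each array as a term, that value is given with it. Of the 9 genes in the plot of pathway differences, Lgmn and Irak3 kept their WT call with that term, and all 9 kept their call in Batf3-/- mice. Other Toll-like receptors gave no test here, since Tlr8 lay at 2.43 to 3.00 and Tlr5 was not analysed in SDLN.

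Of 12 genes for folding, traffic and processing of endosomal receptors, 2 were higher and 3 lower in migratory WT cells, and 1 and 3 in Batf3-/- mice. Unc93b1, whose product carries TLR3, TLR9 and the other endosomal receptors out of the endoplasmic reticulum, had means of 9.67 in resident and 7.04 in migratory WT cells, and it fell by 2.63 ± 0.27 (adjusted p = 1.15e-05 in limma). With array SD as a term that difference was -0.93 (adjusted p = 0.144). In Batf3-/- mice Unc93b1 fell by 1.36 ± 0.24 (adjusted p = 6.80e-04), and with that term the difference was -0.80 (adjusted p = 0.00415). Hsp90b1, the chaperone that folds most Toll-like receptors, fell by 1.99 in WT and by 1.59 in Batf3-/- mice, and with array SD as a term its WT difference was -1.26 (adjusted p = 0.104). Lgmn, encoding a protease that can cleave endosomal receptors, rose instead, by 2.75 ± 0.29 (adjusted p = 1.40e-05) in WT and by 2.20 in Batf3-/- mice.

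Adaptors and accessory proteins also split. Of 5 adaptors tested 2 fell in each genotype, the same 2, Myd88 (-2.70 in WT and -2.02 in Batf3-/- mice) and Pik3ap1 (-2.29 and -2.46), which links the receptors to PI3 kinase. With array SD as a term the WT differences were -0.98 (adjusted p = 0.305) for Myd88 and -0.32 (adjusted p = 0.678) for Pik3ap1. Ticam1, the adaptor of TLR3, had differences of -0.22 (adjusted p = 0.442 in limma) and 0.23 (adjusted p = 0.398), not called in either. Of 6 accessory genes 1 rose and 3 fell in WT, and 1 rose and 2 fell in Batf3-/- mice. Cd180, a receptor homologue that modulates endotoxin responses, fell by 3.06 ± 0.28 (adjusted p = 5.83e-06) in WT and by 3.06 ± 0.25 (adjusted p = 1.73e-06) in Batf3-/- mice. Ly96, encoding the MD-2 partner of TLR4, rose by 2.78 in WT and by 2.46 ± 0.27 (adjusted p = 2.03e-05) in Batf3-/- mice, while Tlr4 stayed below the median in all groups. With array SD as a term the WT differences were -1.71 (adjusted p = 0.0719) for Cd180 and 1.21 (adjusted p = 0.239) for Ly96.

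Downstream, 2 of 14 kinases and ligases were higher and 7 lower in migratory WT cells, and 3 and 2 in Batf3-/- mice. Of 3 transcription factors 2 were lower in each genotype. Irf7, which drives type I interferon genes, fell by 2.52 in WT and by 2.01 in Batf3-/- mice, and with array SD as a term its WT difference was -1.92 (adjusted p = 0.124). Of 6 inhibitors 1 was higher in WT and 2 in Batf3-/- mice. Irak3, a kinase-like inhibitor of MYD88 signalling, had the smallest p of these lists in both genotypes and rose by 2.01 ± 0.17 (adjusted p = 3.67e-06 in limma) in WT and by 2.81 ± 0.15 (adjusted p = 9.41e-08) in Batf3-/- mice. Hsp90b1, Myd88, Irf7 and Ticam1 were named after their values were seen, as were Ly96 and Pik3ap1 in WT and Unc93b1 and Lgmn in Batf3-/- mice.

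**Figure D5:**
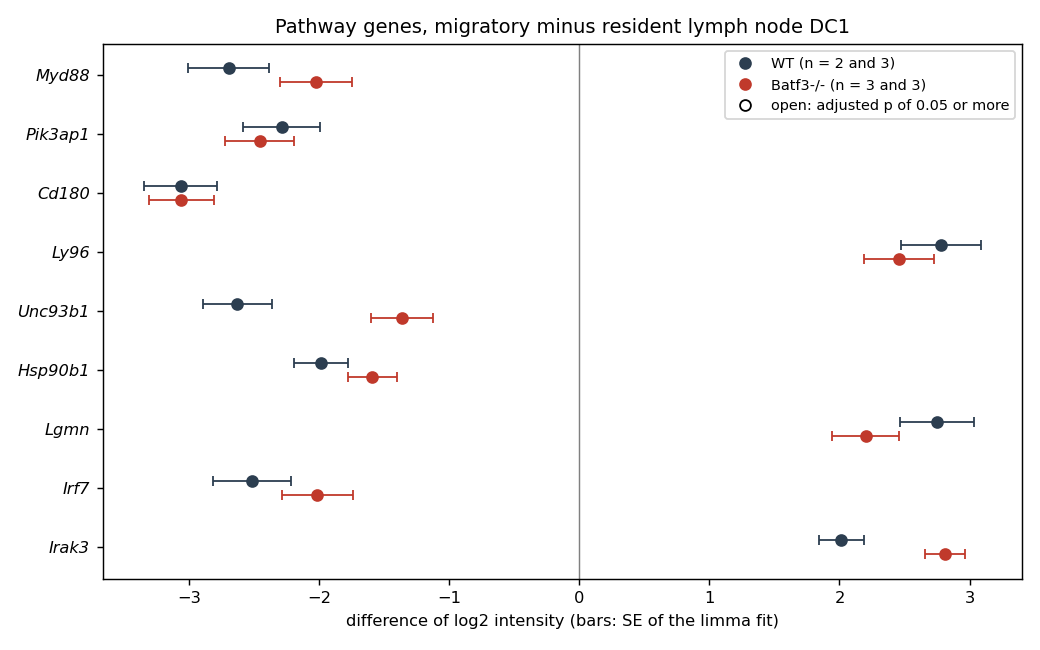
Migratory minus resident difference of log2 intensity (horizontal axis) for 9 genes of the Toll-like receptor pathway in lymph node DC1 of WT and Batf3-/- mice; points are limma estimates without array SD as a term and bars their SE. Myd88, Pik3ap1, Cd180, Unc93b1, Hsp90b1 and Irf7 lie below 0 and Ly96, Lgmn and Irak3 above 0 in both genotypes, from -3.06 (Cd180) to 2.81 (Irak3).

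Between genotypes fewer pathway genes moved. In resident SDLN cells 1 of 46 was called, where 1.84% of all genes were: Cd36, a scavenger receptor that helps TLR2 and TLR6 take up ligand, fell by 2.29 ± 0.28 (adjusted p = 6.81e-04 in limma). In migratory cells 4 of 46 were called, no larger a share than the 9.41% of all genes, and all 4 were higher in Batf3-/- mice: Irak3 by 0.84, Myd88 by 1.26, Unc93b1 by 1.08 and Lrrc59, which aids transport of endosomal receptors, by 1.55. Each of the 4 lost its call without WT replicate 1, Batf3-/- replicate 1 or Batf3-/- replicate 2, and Lrrc59 also without WT replicate 2. Without WT replicate 1 the values were 0.85, 0.77, 0.94 and 1.55, and the adjusted p-values over all these omissions ran from 0.0579 to 0.257. With array SD as a term the differences were 0.40 for Irak3, 0.22 for Myd88, 0.043 for Unc93b1 and 0.020 for Lrrc59, and with only the groups compared none of the 4 kept its call either. For the difference of the Batf3 effect between states 0 of 46 were called by limma, with 8 at an unadjusted p below 0.05, where 19.2% of all genes had one. In spleen 43 were tested, and 0 were called by limma against WT Irf8VENUS+ cells or between WT groups, with 8 at an unadjusted p below 0.05 in each, where 10.4% and 7.91% of all genes had one. Against WT Irf8VENUS- cells 1 was called, Cd36 at -1.70 ± 0.24 (adjusted p = 0.0262), which lost its call without any 1 of 6 arrays, at -1.77 to -1.55.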

How the data were processed

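DC1 RNA was hybridised to Affymetrix arrays, 8 from spleen and 11 from SDLN, on different array types. The submitters' processing notes list RMA (background correction, quantile normalization, probe summary), with a version not given in the sources used. The deposited spleen values were linear intensities, 1.85 to 13035.5, and were turned to log2; the deposited SDLN values were already log2. Neither table gives background per probe. Probe sets were named from platform annotation updated through RefSeq identifiers: in spleen 23521 had 1 symbol, 1814 several and 16010 none, in SDLN 21789, 1621 and 12146. Identifiers matched for 23328 and 21698. The brightest probe set stood for a gene.

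Within each table limma 3.58.1 (R 4.3.3) was fitted to all groups, on 12875 and 11931 genes, with Benjamini-Hochberg adjustment over all of them; differences are log2 with their moderated SE. For spleen the gate was a covariate, so its values against the Irf8VENUS- group differ from plain differences of means. The script was tested on simulated data. Members, lists and tests were chosen with earlier results of these data known. The rule named every receptor, its values where called (Tlr3, Tlr11 and Tlr12 always), and up to 4 called pathway genes with the smallest p per comparison. Genes on a list without a probe set of 1 symbol were not analysed here.

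SDLN titles carry a code shared across groups. Deviations of same-code resident and migratory Batf3-/- arrays correlated at 0.416, 0.210 and 0.479. Unlike-code arrays of the same groups ran from -0.451 to 0.218. The value of 0.210 did not exceed all of these. Deviations were taken from each group's own mean, so same-code and unlike-code values depend on each other and cannot settle a pairing by code. The main fit held no block. Same-code arrays of the other group pairs did not all exceed 0.1. Alternatives covered the filter, normalization, trend, weights, samples, block, array SD and each array left out.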

Additional observations from a re-analysis of the deposited data

Results flagged for a closer look

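The Batf3 effect on Tlr1 differed between migratory and resident SDLN cells by -2.91 on the log2 scale, and it was singled out because that difference between the states itself passed limma's adjusted threshold (adjusted p = 0.0216). Tlr1 was higher without Batf3 in all 3 title codes of resident cells. In migratory cells its Batf3-/- minus WT difference was 0.11 and -1.31 inside the 2 title codes common to both genotypes. No group held 4 or more arrays, so single arrays were not tested as outliers.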

How the results depend on the processing

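Leaving out Tlr6, of 15 called receptor differences 6 kept the call under all alternatives run and 13 kept their sign. The 6 were Tlr3 and Tlr12 between migratory and resident cells in each genotype, Tlr1 between those states in Batf3-/- mice, and Tlr1 between resident genotypes. Counts of called receptors, here with Tlr6, between resident genotypes were 5 with array weights, 3 with only the groups compared and 1 to 2 with an array left out. Between migratory genotypes they were 0 with only the groups compared, 0 with array SD as a term and 0 to 3 with an array left out. Between migratory and resident WT cells 2 were called with array SD as a term. For the difference of the Batf3 effect they were 2 with array weights, 0 with array SD as a term and 0 to 3 with an array left out. With array SD as a term Tlr2 (1.04) and Tlr13 (0.040) changed sign between migratory and resident WT cells; neither was called there. Tlr11 between the WT spleen groups was -0.0070 with array weights and ran from -0.089 (without WT Irf8VENUS+ replicate 1) to 0.32 with an array left out, and the Tlr12 difference of the Batf3 effect ran from -0.48 to 0.22, the latter without migratory WT replicate 1; these were not called in any setting. The cause of these changes was not tested. With the replicate block the counts were 0, 0 and 0 in spleen. In SDLN, leaving out Tlr6, they were 1, 4, 6, 6 and 1, and no call was lost. Their order is resident genotypes, migratory genotypes, WT states, Batf3-/- states and difference of effects. Quantile normalization applied again shifted the median of all genes by 0.18 between WT states and by -0.11 for the difference of effects; Tlr9 between migratory genotypes was then 0.59 (adjusted p = 0.0871 in limma). Where an array left out leaves 1 in a group, that array is assumed to vary like the other groups. Signal near the floor cannot be told from absence, which limits Tlr4, Tlr6, Tlr7, resident WT Tlr1, migratory Tlr12 and migratory Batf3-/- Tlr3.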
